A study of Mus musculus with 24 samples.

Results

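H3K27ac peaks were examined at 10 genes of the circadian clock in isolated quadriceps myofibers: Clock, Per1, Per2, Per3, Cry1, Cry2, Nr1d1, Nr1d2, Dbp and Rora. A peak was counted for a gene where it overlapped the gene body by at least 1 bp or lay within 10 kb of one of its curated RefSeq starts in mm10. The genes were chosen as parts or outputs of the clock and are 10 of 21000 protein-coding genes with a curated transcript. Their windows held 271 of the 250070 regions that were obtained by merging the peaks of all lists.

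The study performed ChIP-Seq for H3K27ac, a histone acetylation found at active promoters and enhancers, on myofibers of male and female C57BL/6 mice, which the study's methods give as C57BL/6J. The 8 groups were males and females given vehicle, and males and females given weekly prednisone, a synthetic glucocorticoid, whose muscles were taken 4, 6 or 8 days past the fifth injection. All mice were of the same strain, the labels give no other genotype, and the vehicle mice were the control of each sex. Myofibers had been released from the muscle with collagenase II and filtered, and the methods place injections in the morning, soon after the lights came on. They also place force measurements in the morning just before sacrifice, and an hour of collection for the mice of these libraries was not given in the sources used here. Each group had 2 H3K27ac libraries and 1 input library, and the deposited data are 1 peak list for each group.

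With 1 list for each group there was no spread between replicates, so no difference between groups was tested and each value below describes that list. The lists held 17482 to 123249 peaks at a depth of 7.52 to 50.6 M tags, lowest in the male day 4 list. The share of tags that fell in peaks ranged from 5.39% to 47.3% and was highest in the female day 6 list. Tag counts of clock gene start peaks were therefore ranked among the start peaks of their own list. Tag values printed below for several lists are not comparable between lists as levels. Starts of the 14 myofiber markers lay within 1 kb of a peak for 8 to 13 markers per list, with Ckm, Mylpf, Tnnt3, Tnni2, Tnnc2, Atp2a1, Pvalb and Actn3 in all 8 lists. Markers of other cells were also held: 1 to 4 of 4 endothelial, 0 to 3 of 3 fibro-adipogenic, 0 to 3 of 3 satellite cell, 0 to 2 of 4 immune, 0 to 2 of 3 adipocyte and 1 of 2 Schwann cell markers. Summed over each list of markers, the peaks at these starts held 269 to 7238 normalized tags for myofibers, against 7.17 to 1148 for endothelium, 0 to 411 for fibro-adipogenic cells, 14.2 to 314 for Schwann cells, 0 to 245 for immune cells, 0 to 67.0 for adipocytes and 0 to 41.8 for satellite cells. These sums run over 14 myofiber markers and over 2 to 4 markers of each other cell type. Each range also spans peak lists, so the sums do not measure the share of a cell type.

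The mammalian clock is a feedback loop of transcription. CLOCK and its partner BMAL1, the product of Arntl, bind E-boxes and activate the Per and Cry genes, whose proteins return to the nucleus and repress that activity. A second loop has REV-ERBα and REV-ERBβ, the products of Nr1d1 and Nr1d2, repress and RORα, the product of Rora, activate genes with ROR elements, and DBP, an output factor of the PAR bZIP family, acts on D-boxes. The clock runs in skeletal muscle as in most tissues, and glucocorticoids reset it, with Per1 a classic direct target of the glucocorticoid receptor (GR).

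The promoters show which clock motifs lie around the starts, and not every match lay inside a peak in every list. Sequences are from RefSeq (GRCm38.p6, the assembly of mm10), run 5′ to 3′ along the gene's strand from 250 bases before to 50 bases after the start, and carry matches in capitals. Both strands were searched for the E-box CACGTG, the variant CACGTT that differs from it in the last letter, the D-boxes TTATGTAA and TTACGTAA, the core of the ROR element TAGGTCA, and the GR consensus ACANNNTGT. Promoters of 12 starts of 9 genes were searched, without Per2 and the internal start of Rora. The 5 below are shown because they hold a match.
Per1, first start, plus strand, chr11:69098699-69098998: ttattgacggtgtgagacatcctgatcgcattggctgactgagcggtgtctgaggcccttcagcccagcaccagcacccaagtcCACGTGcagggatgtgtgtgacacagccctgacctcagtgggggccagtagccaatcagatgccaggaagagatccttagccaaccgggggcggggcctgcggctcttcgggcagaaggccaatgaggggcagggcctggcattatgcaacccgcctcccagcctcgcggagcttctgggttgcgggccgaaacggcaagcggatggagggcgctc
Cry1, minus strand, chr10:85185005-85185304: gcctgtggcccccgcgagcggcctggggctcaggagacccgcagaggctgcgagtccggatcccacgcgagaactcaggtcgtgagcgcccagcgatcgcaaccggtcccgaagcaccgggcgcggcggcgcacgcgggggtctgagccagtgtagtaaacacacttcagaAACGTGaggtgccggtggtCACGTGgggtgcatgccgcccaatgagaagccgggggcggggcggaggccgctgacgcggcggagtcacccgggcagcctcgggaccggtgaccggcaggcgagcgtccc
Cry2, minus strand, chr2:92434020-92434319: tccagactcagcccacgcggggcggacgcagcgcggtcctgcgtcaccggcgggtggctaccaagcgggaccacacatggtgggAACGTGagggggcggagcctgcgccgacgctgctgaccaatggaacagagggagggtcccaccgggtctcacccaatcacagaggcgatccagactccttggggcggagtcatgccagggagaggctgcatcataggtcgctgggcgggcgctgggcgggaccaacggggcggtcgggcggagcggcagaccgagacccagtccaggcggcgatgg
Nr1d1, minus strand, chr11:98775328-98775627: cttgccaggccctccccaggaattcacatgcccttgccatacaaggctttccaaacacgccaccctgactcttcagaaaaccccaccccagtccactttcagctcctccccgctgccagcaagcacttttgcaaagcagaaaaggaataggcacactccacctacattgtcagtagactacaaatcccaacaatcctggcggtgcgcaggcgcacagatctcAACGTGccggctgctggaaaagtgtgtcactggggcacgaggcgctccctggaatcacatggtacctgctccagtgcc
Per3, minus strand, chr4:151044616-151044915: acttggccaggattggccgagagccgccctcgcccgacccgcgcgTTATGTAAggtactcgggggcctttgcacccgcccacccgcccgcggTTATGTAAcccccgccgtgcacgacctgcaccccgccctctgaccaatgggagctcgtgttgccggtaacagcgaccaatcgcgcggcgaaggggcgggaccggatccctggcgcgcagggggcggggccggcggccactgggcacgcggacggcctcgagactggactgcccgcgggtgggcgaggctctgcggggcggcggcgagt

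In the Per1 promoter the capitals mark an E-box whose first base along the gene is at position -166 from the start. Cry1 held an E-box at -60 and a variant E-box at -79, Cry2 held a variant E-box at -166, and Nr1d1 held one at -28. The E-box was found in 2 of the 12 promoters, beside 8.03% of 20488 promoters of protein-coding genes, and the variant in 3 of 12, beside 4.75%. Per3 held both D-box matches of these 12 promoters, at -205 and -158, and a D-box was present in 1.02% of all promoters. The ROR element core and the GR consensus had no match in these 12 windows, and are present in 2.25% and 5.90% of all promoters.

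Wider windows held more of these letters. Within 3 kb on each side of the start, Nr1d1 had 5 E-boxes, a number reached by 0.572% of 26242 starts, and Per1 had 4, reached by 2.19%. Per3 had 5 D-boxes in its window, which 0.00762% of starts reached (Per3 included), and the internal start of Rora had 3, which 0.537% reached. An E-box occurred in 54.9% of such windows, the variant E-box in 57.5%, a D-box in 23.2%, the ROR element core in 43.2% and the GR consensus in 83.0%, so a single match of these is common. At Per2, a D-box centered at position -117 and a variant E-box centered at 12 were each inside a peak of 4 lists. As many GR matches as the 3 of the first Per1 start were found at 29.0% of starts. From the matches that lay inside a peak of all 8 lists, E-boxes and ROR element cores near the starts of Per1, Nr1d1, Nr1d2 and Dbp and the GR matches of Per1 are shown next with 10 bases on each side, on the gene's strand, with the position of the middle of the match from the nearest start.
Per1 E-box, position -1273, chr11:69097674-69097679: aagctttagcCACGTGacagtgaggg
Per1 E-box, position -527, chr11:69098420-69098425: cccttaacgaCACGTGggccctcaat
Per1 GR consensus, position -2575, chr11:69096370-69096378: ttacatgagaACAATATGTgtaaagttct
Per1 GR consensus, position -1866, chr11:69097079-69097087: agccaagagaACACGATGTtccctagtgc
Per1 GR consensus, position 474, chr11:69099419-69099427: tcaggctggaACATCCTGTtctcagcgct
Nr1d1 E-box, position -320, chr11:98775695-98775700: gttctccaatCACGTGaagctctcac
Nr1d2 E-box, position 431, chr14:18238673-18238678: ccgcactggcCACGTGcacggtgtgt
Nr1d2 E-box, position 534, chr14:18238570-18238575: cgggcggagaCACGTGaggccgcggg
Nr1d2 E-box, position 579, chr14:18238525-18238530: gccggaggaaCACGTGggggcggtgc
Dbp E-box, position 2467, chr7:45707712-45707717: attccctcgcCACGTGagtccgcctt
Dbp E-box, position 2580, chr7:45707825-45707830: ctgtaggccaCACGTGatgcggccct
Dbp ROR element core, position -345, chr7:45704899-45704905: tggccaaataTAGGTCAgtgtcccgcc
Dbp ROR element core, position 613, chr7:45705857-45705863: tagtcttcatTAGGTCActtaggtctt

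These windows are matches of letters and were not tested for binding. All 3 GR consensus matches of the Per1 start region lay in a peak of every list, vehicle lists included. So did 2 of 7 in the Dbp start region, 1 of 3 in that of Nr1d2 and 1 of 2 in a region upstream of Nr1d1. The region over the Dbp start held 7 E-boxes, of which 2 were in a peak of every list, and both of these lie downstream of the start.

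The first comparison asked whether the starts of the clock genes carried H3K27ac in each group. In males, 10 of 10 genes had a peak within 1 kb of a start in the vehicle list and at days 6 and 8, and 8 of 10 had one at day 4. From vehicle to day 8, in the same lists, 54.9%, 31.8%, 32.0% and 35.5% of all protein-coding genes had one. In females, 9 of 10 genes had such a peak in the vehicle list and 10 at each of days 4, 6 and 8, beside 29.5%, 54.3%, 69.9% and 62.5% of all genes. The count of clock genes cannot exceed 10 and lay at or near that ceiling. At equal list length it ranged from 4 at female day 6 to 10 at male days 6 and 8, beside 22.5% to 34.7% of all genes over the 8 lists. Where the peak had to cover the start base it ranged from 3 in female vehicle to 10 in the treated female lists, beside 15.2% to 62.7% of all genes. With predicted transcripts added it was 10 in female vehicle and 8 at male day 4, and the share of all genes was not computed.

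In all, 8 of the 10 genes had a merged region over a start with a peak from all 8 lists, and 19.4% of all genes had one. A merged region joins overlapping peaks in a chain, so the peaks of 2 lists in it need not overlap each other. At Clock the male day 4 peak ended at 76304685 and the female vehicle peak began at 76304984. The same 8 genes, all except Per2 and Per3, had a peak within 1 kb of a start in each list on its own, as did 16.7% of all genes. When every list was shortened to its 17482 peaks of highest findPeaks score, 2 of the 10 genes had a shared start region, Clock and Rora. The score need not follow tags, so start peaks with many tags can be dropped. At female day 6 the Per1 start peak held 5641 tags and scored 11, the lowest score of that list. The Clock start peak held 477 tags there and scored 46. The share of all genes at that length was not computed, so the fall cannot be set against a background. Of 19 other clock genes, 8 had a start region in all 8 lists, among them Bhlhe40, Nfil3, Tef and Csnk1e. The number with a start peak was 15, 12, 13 and 11 in the male lists and 10, 17, 17 and 18 in the female lists, from vehicle to day 8. Arntl2, a paralog of Arntl, had no start peak in any list. Arntl itself, named after its values were seen, had one in 7 lists.

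**Figure D1:**
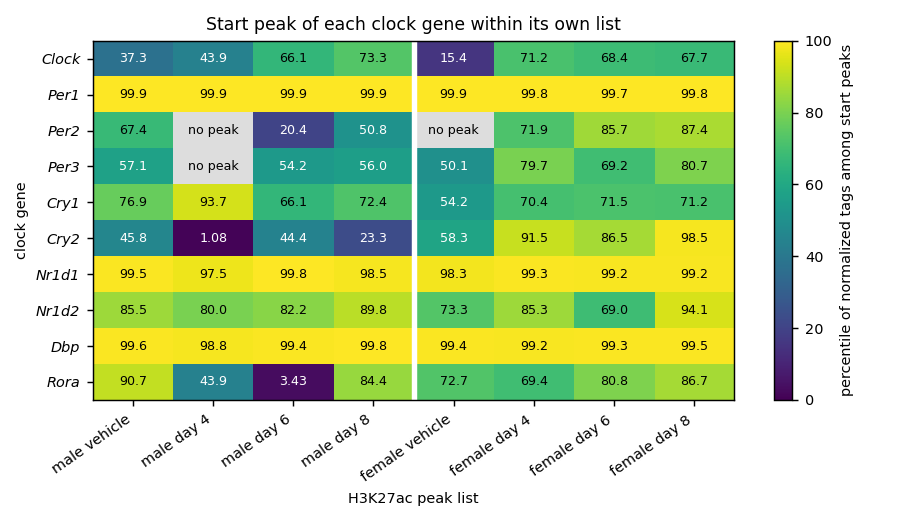
Percentile of the normalized tags of each clock gene's start peak (rows) among all genes with a start peak in the same list (columns); grey cells have no peak within 1 kb of a start. Per1, Nr1d1 and Dbp lie at or above 97.5 in all 8 lists. Per2 and Per3 are the only genes with a grey cell, which requires that every curated start lack a peak.

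Among the activators, Clock (chr5:76209868-76304792, minus strand) has 3 curated starts close to each other. Its start peak was 1.33, 0.626, 1.40 and 1.68 kb wide in the male vehicle, day 4, day 6 and day 8 lists. In the female lists it was 0.500, 2.17, 2.21 and 2.19 kb wide. By normalized tags it ranked between the 15.4th and the 73.3rd percentile of the start peaks of a list, lowest in female vehicle. By fold over input it ranked between the 31.5th percentile in male vehicle and the 100th at female day 4. The female vehicle peak covered none of the 3 start bases and lay between 0.192 and 0.692 kb upstream of the first. More than 1 kb from a start, Clock had 0 to 3 peaks per list in a window of 105 kb, with 0 at male days 4, 6 and 8 and at female day 4. Of its 9 regions, 7 were in 1 list only.

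Rora (chr9:68653786-69388246, plus strand) encodes RORα and has a far 5′ start and an internal start, from which a shorter transcript begins. A peak within 1 kb of the internal start at 69289841 was present in all 8 lists. The far start at 68653786 had one in 6 lists, and it was missing in the male day 6 and female vehicle lists. At male days 4 and 6 and in female vehicle the peak at the internal start lay beside the start base and not over it. The stronger start peak of Rora ranged from the 3.43rd percentile at male day 6, where it held 28 tags, to the 90.7th in male vehicle.

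Per1 (chr11:69098949-69109960, plus strand), a repressor of the loop, had the highest placed start peak of the 10 genes in 8 of 8 lists. Ranked by normalized tags among the start peaks of 21000 genes, it held rank 9, 8, 5 and 5 in the male vehicle, day 4, day 6 and day 8 lists. In the female lists it held rank 6, 27, 44 and 28. The peak held 1135, 187, 1086 and 584 tags in the male lists and 583, 1858, 5641 and 4385 in the female lists, at the depth of each. Both of its starts were covered by the peak in every list, vehicle and treated, male and female alike. By fold over input the same peaks lay at the 39.7th to 96.3rd percentile, and by normalized tags per kb at the 80.6th to 99.7th.

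The width of the Per1 peak was 9.14, 5.44, 6.89 and 6.49 kb in the male lists, placing it at or above the 99.8th percentile of start peak widths. In the female lists, in the same order, it was 7.03, 9.26, 24.9 and 19.5 kb. In 6 of the 8 lists the peak reached 3.58 to 7.09 kb upstream and 1.58 to 2.60 kb downstream of the first start. At female days 6 and 8 it also took in the start of the upstream neighbor Vamp2 at 69088528, which codes for a vesicle protein, so tags of the 2 genes cannot be separated in those lists. In the other 6 lists a separate peak lay over the Vamp2 start.

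Per2 (chr1:91415982-91459328, minus strand) was the gene that lacked a start peak in 2 of the lists, more than any other of the 10. Its start peak was 1.91 kb wide in male vehicle, absent at male day 4, and 0.784 and 1.09 kb wide at male days 6 and 8. In females it was absent at the curated start in vehicle and 2.19, 7.06 and 6.38 kb wide at days 4, 6 and 8. With predicted transcripts added, all 10 clock genes had a start peak in female vehicle, Per2 included. Peaks covered 19.0%, 0%, 4.11% and 2.99% of the Per2 window in the male lists and 2.82%, 20.1%, 58.3% and 40.5% in the female lists. The same pattern of presence and absence over the 8 lists was found in 1.80% of all genes.

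Per3 (chr4:151003655-151044665, minus strand) had a start peak in 7 lists and no peak of any kind in its window at male day 4. In the other male lists and in female vehicle its peak began downstream of the start base, by 0.0140 to 0.321 kb, and was 0.635 to 1.02 kb wide. At female days 4, 6 and 8 the peak covered the start and was 2.62, 2.04 and 2.78 kb wide. The number of Per3 peaks was 4, 0, 2 and 1 in males and 1, 5, 13 and 9 in females. The D-boxes printed above at -205 and -158 were inside a peak of 3 lists.

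The male day 4 list, in which Per2 and Per3 had no peak, was the shallowest, with a lowest deposited value of 6.65 normalized tags per peak. In the other 3 male lists the start peaks of Per2 and Per3 held 9.50 to 44.3 normalized tags. The part of depth in their absence at male day 4 was not tested. Loss of the start peak from vehicle to day 4 in males was found for these 2 of 10 genes, and all 10 had one in vehicle. Of all 21000 genes 24.8% lost one, or 5203 of the 11524 that had one in vehicle. No clock gene could gain one, beside gains at 1.73% of all genes. At male days 6 and 8 no clock gene had lost or gained a start peak relative to vehicle. Of all genes 24.6% and 21.2% had lost one, or 5160 and 4451 of the same 11524, and 1.74% and 1.80% had gained one. In females Per2 was the only gene with no peak at any of its curated starts in vehicle. It gained one at day 4 and had it at days 6 and 8, beside gains at 25.9%, 41.1% and 33.7% of all genes. The far Rora start at 68653786 and the Clock start at 76303502 also lacked a peak in vehicle and had one at these days. Both genes had a vehicle peak at another start. With predicted transcripts added, Per2 had a start peak in vehicle. No clock gene lost one, beside 1.10%, 0.667% and 0.686% of all genes, or 230, 140 and 144 of the 6191 that had one in vehicle.

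Cry1 (chr10:85131700-85185054, minus strand) codes for a cryptochrome, the partner of the PER proteins. Its start base was covered in all 8 lists by a narrow peak of 1.41, 1.70, 1.40 and 1.23 kb in males and 0.923, 1.97, 2.43 and 2.12 kb in females. The printed E-box at -60 was inside the peak in every list. The peak ranked from the 54.2nd percentile in female vehicle to the 93.7th at male day 4. Of the 13 Cry1 regions, 12 were intronic and 6 were found in 1 list only.

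Cry2 (chr2:92403646-92434069, minus strand) had narrower peaks at its start in males than in treated females. The widths were 1.19, 0.500, 0.933 and 0.638 kb in the male lists and 0.762, 5.00, 4.72 and 14.0 kb in the female lists. By rank the start peak went from the 1.08th percentile at male day 4, where it held 8 tags, to the 98.5th at female day 8. The start base was covered in male vehicle and in the 3 treated female lists, and the other 4 lists had a peak beside it. A further peak within the gene lay about 10 kb from the start in the lists of both sexes, and at female day 8 it was joined to the start peak.

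**Figure D2:**
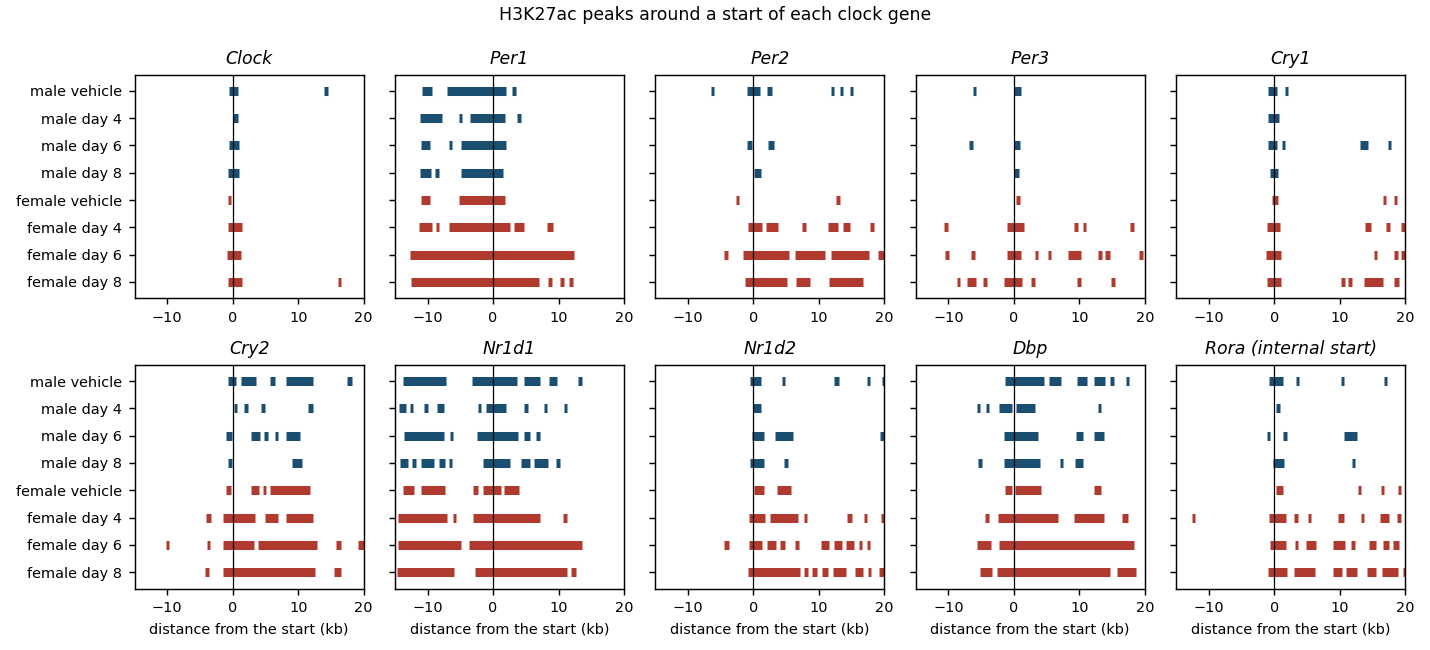
H3K27ac peaks (bars) of the 8 lists (rows, males blue and females red) by distance from a start of each gene in kb, positive values being downstream on the gene's strand. Wide blocks at Per1, Nr1d1 and Dbp are present in all rows, while the curated start of Per2 is empty at male day 4 and in female vehicle.

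Nr1d1 (chr11:98767932-98775377, minus strand) codes for REV-ERBα, a heme-binding nuclear receptor that represses Arntl. Its start peak was 6.87, 3.15, 6.28 and 4.20 kb wide in males and 2.63, 10.3, 17.2 and 14.1 kb wide in females. It ranked 54, 156, 16 and 111 in the male lists and 108, 80, 111 and 108 in the female lists, of 21000 genes. The peak covered the start base in every list, and at female days 6 and 8 it spanned the whole gene and reached past its 3′ end, where Nr1d1 overlaps Thra on the other strand. At female day 4 it ended inside that overlap. Tags of the 2 genes cannot be separated in those 3 lists. By fold over input its percentile was 29.6 to 87.8, and by normalized tags per kb 43.7 to 95.8 with a median of 81.3.

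Upstream of Nr1d1 lay the single region away from a start that all 8 lists shared. It spanned chr11:98780328-98790106, 9.78 kb in which no protein-coding gene is annotated, and its near edge was 4.95 kb from the start. The region was 1 peak at male vehicle (6655 bp), at female day 6 (9544 bp) and at female day 8 (8760 bp). It was broken into 4 peaks at male day 4 and 5 at male day 8. An E-box at -8167, a variant E-box at -7636, a ROR element core at -10479, a D-box at -13416 and a GR consensus match at -12256 were inside a peak of each list.

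Nr1d2 (chr14:18204056-18239106, minus strand), which codes for the related REV-ERBβ, had a start peak in all 8 lists, 1.81, 1.24, 1.82 and 2.05 kb wide in males and 1.49, 2.48, 2.02 and 7.88 kb wide in females. Its percentile was 69.0 to 94.1, above that of Clock in each list. All 3 E-boxes printed for Nr1d2 lie at positions 431 to 579 and were inside the peak of every list. Peaks in its window numbered 5, 1, 3 and 2 in males and 3, 6, 11 and 9 in females.

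Dbp (chr7:45705247-45710203, plus strand), the output gene of the set, stood with Per1 and Nr1d1. Its start peak ranked 42, 80, 40 and 16 in males and 35, 91, 95 and 64 in females. It was 6.04, 3.02, 5.13 and 5.39 kb wide in the male lists and 3.93, 9.21, 20.6 and 17.2 kb wide in the female lists. At male day 4 and in female vehicle the peak with most tags began 0.262 and 0.217 kb downstream of the start, and in the other 6 lists it covered the start base. At female days 6 and 8 it also held the starts of Rpl18, a ribosomal protein gene, and Sphk2, a sphingosine kinase gene, and at day 6 that of Fam83e. Tags of these genes cannot be separated from those of Dbp there. By fold over input its percentile was 27.9 to 71.6. By normalized tags per kb, which takes out width, it was 75.4 to 93.4 with a median of 86.0.

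The next comparison was of the number of peaks over whole gene windows. In order from vehicle to day 8, male lists held 95, 32, 63 and 38 clock gene peaks. Female lists held 51, 112, 178 and 145. The male numbers were thus highest in vehicle and the female numbers lowest in vehicle. Per 100 kb of window this was 8.16, 2.75, 5.41 and 3.27 peaks in males and 4.38, 9.62, 15.3 and 12.5 in females. The density over all protein-coding genes was 5.78, 1.38, 2.14 and 1.53 in males and 2.36, 4.69, 8.53 and 5.95 in females, and it went up and down with that of the clock genes. At equal list length the counts were 20 in male vehicle and 32 at male day 4, a reversed order, and 31 in female vehicle and 35 at female day 4. The length of a list and its group cannot be told apart in these counts.

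**Figure D3:**
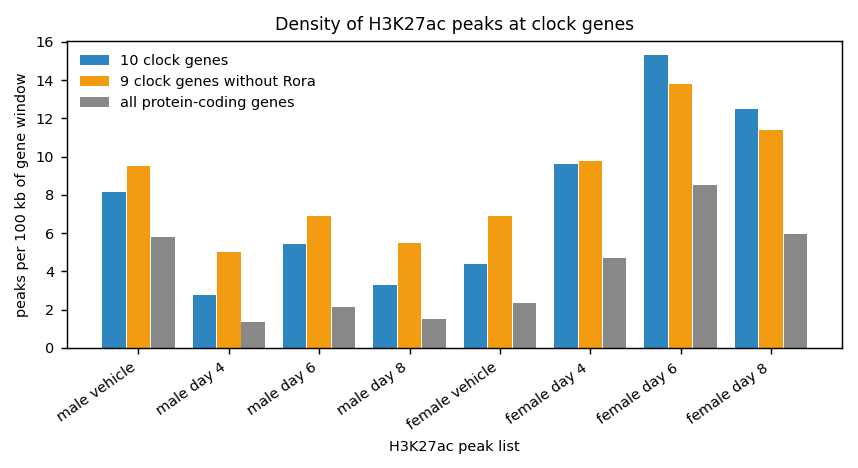
H3K27ac peaks per 100 kb of gene window in each list, for the 10 clock genes (blue), the 9 without Rora (orange) and all protein-coding genes (grey). The clock gene bars exceed the grey bar in all 8 lists, and the lists with high grey bars also have high clock gene bars.

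The gene body of Rora is 734 kb long, against 4.96 to 94.9 kb for the others. Rora held 55, 11, 34 and 15 peaks in the male lists and 22, 71, 120 and 97 in the female lists. Without Rora the other 9 genes held 40, 21, 29 and 23 peaks in males and 29, 41, 58 and 48 in females. Of the 186 merged Rora regions 179 were intronic and 100 were found in 1 list only. Female lists alone held 108 of them, or 58.1%, beside 57.1% of all merged regions. Male lists alone held 28, or 15.1%, beside 24.0%, and lists of both sexes held 50, or 26.9%, beside 18.9%. The female treated lists also held more markers of other cells than female vehicle: 4 of 4 endothelial markers in each against 1, and 3 of 3 fibro-adipogenic markers against 2. Myofiber markers numbered 13 of 14 in each against 11, with summed normalized tags of 395 in female vehicle and 1949, 7238 and 5923 at days 4, 6 and 8. Endothelial markers had 8.72, 170, 1148 and 446 in the same order, and the share of all genes with a start peak was likewise higher in these lists than in vehicle, as given above. Pax7, which defines satellite cells, had a start peak at female day 8 and in no other list. The part of other cells in the Rora regions was not tested.

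**Figure D4:**
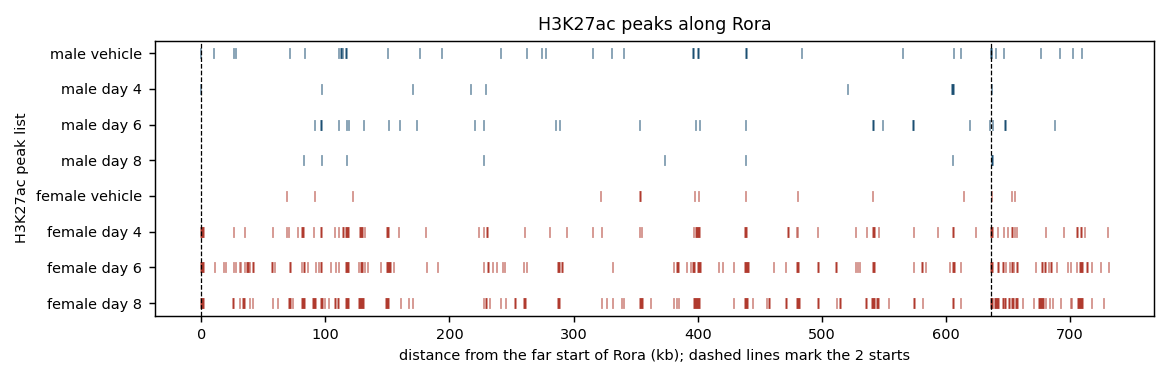
H3K27ac peaks of the 8 lists (rows, males blue and females red) along Rora, by distance from its far 5′ start in kb; dashed lines mark both starts. Peaks spread through the long introns in all rows and are most dense in the female day 4, 6 and 8 rows, with 71, 120 and 97 peaks.

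The study defined prednisone-responsive enhancers as day 4 peaks without a vehicle peak of the same sex, and asked how long they last. In males 13 of 32 clock gene day 4 peaks had no vehicle peak, 40.6% with a 95% Wilson interval of 25.5% to 57.7%, beside 45.4% of all day 4 peaks. In females the number was 79 of 112, 70.5% with an interval of 61.5% to 78.2%, beside 81.9% of all day 4 peaks. These intervals, and those that follow, cover counting error only. Rora supplied 8 of the 13 male and 56 of the 79 female peaks. Clock supplied none in either sex, and Cry1, Nr1d2, Per2 and Per3 supplied none in males.

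Of the 13 male peaks 2 overlapped a peak at day 6, 15.4% with an interval of 4.33% to 42.2%, beside 5.84% of all such peaks. At day 8 the number was 3, 23.1% with an interval of 8.18% to 50.3%, beside 5.01%. One peak, or 7.69%, was present at both days, beside 1.70% of all. Of the 79 female peaks 52 were present at day 6, 65.8% with an interval of 54.8% to 75.3%, beside 50.3% of all. At day 8 there were 51, 64.6% with an interval of 53.6% to 74.2%, beside 43.6%. At both days there were 41, 51.9% with an interval of 41.1% to 62.6%, beside 37.7%. These shares were above those of all female peaks, and the difference was not tested. Without Rora 16 of 23 female peaks were present at day 6 and 15 of 23 at day 8. Neighboring peaks of 1 gene are not independent, and the intervals do not allow for this. At equal list length 6 of 23 female peaks, or 26.1%, were present at day 6, below the 33.7% of all such peaks. At day 8 there were 10, or 43.5%, above the 37.3% of all. Of 23 male peaks at that length 7 were present at day 6 and 9 at day 8, beside 16.9% and 20.1% of all.

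**Figure D5:**
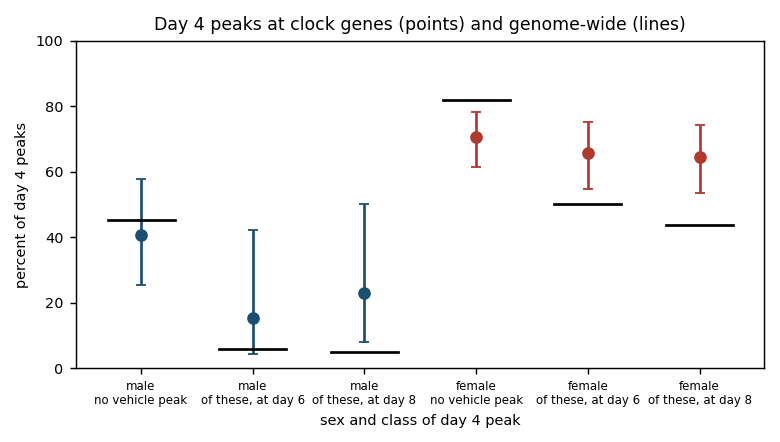
Percent of clock gene day 4 peaks (points, with 95% Wilson intervals for counting error) that had no vehicle peak, and of these the percent present at days 6 and 8, for males (blue) and females (red). Black lines give the same percent over all day 4 peaks, which lies below the female points at days 6 and 8 and above the female point for peaks without a vehicle peak.

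The male peak present at both later days lay in a Rora intron, at chr9:68750388-68750888, with a findPeaks score of 8. Among the 41 female peaks, the highest score, 47, belonged to the Per2 start peak at chr1:91458038-91460228. It held 47.0 normalized tags at 6.23-fold over input. A peak in a Rora intron at chr9:69258920-69260545 followed with a score of 44, its center at -30.1 kb from the internal start. The next was a 500 bp peak at chr11:69090194-69090694, within 10 kb of the Per1 start and inside the Vamp2 gene, with a score of 39. That peak held 8.17 normalized tags at 4.12-fold over input, and the order here is by score and not by tags. The last 2, each with a score of 37, lay at chr11:69102095-69103693 in Per1, 2.74 kb downstream of its second start, and at chr9:69361508-69363656 in Rora, 72.7 kb downstream of its internal start. Per1 supplied 3 and Per2 4 of the 41 peaks, Per3 supplied 2, Cry2, Nr1d1 and Dbp 1 each, Cry1 and Nr1d2 none, and Rora 29.

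Peaks that were new at day 4 in one sex were compared with the vehicle list of the other. Of the 79 female peaks 22 overlapped a male vehicle peak, 27.8% with an interval of 19.2% to 38.6%, beside 25.2% of all female peaks of this kind. Of the 13 male peaks 1 overlapped a female vehicle peak, 7.69% with an interval of 1.37% to 33.3%, beside 5.78% of all. Both shares lay near their background. Of the 13 male peaks 4 overlapped one that was new in females, 30.8% with an interval of 12.7% to 57.6%, beside 11.7% of all. Of the 79 female peaks 4 overlapped one that was new in males, 5.06% with an interval of 1.99% to 12.3%, beside 1.67% of all. The new Per2 start peak of females is among the regions that the male vehicle list already held.

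Across all lists, 9 of the 271 regions, or 3.32%, held a peak from each of the 8 lists, beside 1.70% of the 250070 merged regions. Those found in 1 list were 146, or 53.9%, beside 70.6% of all. The 9 were the start regions of Clock, Per1, Cry1, Cry2, Nr1d1, Nr1d2 and Dbp, that of the internal Rora start, and the region upstream of Nr1d1. By place, 11 regions lay over a start, 235 in an intron, 13 over an exon and 12 in the flank. Per2, Per3 and the far start of Rora had no region that all 8 lists held.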

How the data were processed

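H3K27ac ChIP-Seq peak lists of 8 groups were analyzed, each pooled by the authors from 2 libraries with 1 input; how they were combined is not given in the sources used here. The authors aligned reads to mm10 and called peaks with HOMER findPeaks in histone style. The submitters' processing notes name TopHat2 2.1.0, Bowtie2 2.2.6 and HOMER. The normalized tag count is a signal that the authors deposited per 10 M tags. The deposited findPeaks score is not scaled for depth. Deposited tag counts of the H3K27ac libraries and the deposited ratio of these to input (fold) were used as given, and the deposited p-values were not used. Depth was recovered from the step between low normalized values in the lists whose tag totals were scaled to input. For male day 4 and female day 6 it was the ratio of total to normalized tags in large peaks. In each list 100% of low normalized values were whole multiples of the value of 1 tag within 0.006. No per-sample column was left unused (0 columns).

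Peaks were assigned to genes with GRCm38.p6 RefSeq transcripts (Python 3.11.15, pandas 2.3.3, scipy 1.17.1, pysam 0.24.0), 1 bp counting as overlap. Overlap and motif code was tested on simulated data. The 10 genes, the other clock genes, the markers and the motifs were chosen with earlier results of these data known. Named were the 10 genes, regions over a start or in all 8 lists, and for each sex up to 5 day 4 peaks absent from vehicle and present at both later days with the highest day 4 score. With 1 list for each group no test was made. Alternatives were a fold of at least 4, lists of equal length, the start base, predicted transcripts, windows near starts, 50% coverage and other rankings. Those without Rora, and with each list on its own, were chosen after seeing the data.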

Additional observations from a re-analysis of the deposited data

Results flagged for a closer look

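The number of clock gene peaks and of clock genes with a start peak went in opposite directions in the 2 sexes from vehicle to day 4. In males the change was -63 peaks (95 in vehicle, 32 at day 4) and -2 genes with a start peak (10 and 8, with Per2 and Per3 missing at day 4). In females it was 61 peaks (51 in vehicle, 112 at day 4) and 1 gene (9 and 10, Per2 being new at day 4). With predicted transcripts added, both of these female lists had 10 genes with a start peak. The difference between the sexes was not tested, since each group has 1 list. Beside it, the lists as a whole went from 87600 to 17482 peaks in males and from 38861 to 67503 in females, and depth was 31.6 and 7.52 M tags in the male and 27.5 and 49.0 M tags in the female lists. At equal list length the change in peaks was 12 in males and 4 in females.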

How the results depend on the processing

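At equal list length the change in clock gene peaks from vehicle to day 4 reversed in males, from -63 to 12, and fell to 4 in females. It was -34 and 31 at a fold of at least 4, -6 and 11 within 10 kb of a start, and -19 and 12 without Rora. Clock gene peaks at equal length numbered 20 in male vehicle, and 31, 35, 28 and 36 in the female lists from vehicle to day 8. Within 10 kb of a start they numbered 28, 26 and 24 in male vehicle, day 6 and day 8, and 19, 30, 30 and 26 in the female lists. Without Rora they numbered 40, 21, 29 and 23 in males and 29, 41, 58 and 48 in females. Genes with a start peak numbered 5 in male vehicle, 4 at female day 6 and 6 at female day 8 at equal length, and 6 at male day 6 and 3 in female vehicle where the peak had to cover the start base. Genes with a start region in all 8 lists numbered 2 at equal length, and the share of all genes at that length was not computed. The lists were shortened by findPeaks score and not by tags, so start peaks with many tags could be dropped. From vehicle to day 8 the Per1 start peak scored 10, 19, 66 and 23 in males, beside a lowest score in the list of 9, 7, 25 and 15. In females it scored 14, 28, 11 and 17, beside a lowest score of 10, 24, 11 and 16. Day 4 peaks without a vehicle peak at equal length numbered 23 of 32 in males and 23 of 35 in females. Of all 17482 day 4 peaks at that length 12130 in males and 12472 in females had none. Near starts they numbered 5 of 22 in males and 15 of 30 in females, and without Rora 5 of 21 and 23 of 41. At a fold of at least 4 they numbered 52 of 80 in females. The shares of all day 4 peaks at these last 3 settings were not computed. Of the female ones 51.9% were present at day 6 at a fold of at least 4, where the share of all was not computed. At equal length 6 of 23, or 26.1%, were present at day 6 and 10, or 43.5%, at day 8, beside 33.7% and 37.3% of all. Of the 23 male ones at equal length 7 were present at day 6 and 9 at day 8, beside 16.9% and 20.1% of all. The equal length lists hold fewer peaks by construction and keep those of highest score, and other causes were not tested. No paired analysis was possible because each deposited list pools the libraries of its group, and leaving out a replicate could not be run for the same reason. The percentile of a start peak moved by over 10 points in 108 of 154 rankings by fold or by tags per kb. Median percentiles for Per1, Nr1d1 and Dbp were 65.0, 65.5 and 66.4 by fold and 93.3, 81.3 and 86.0 by tags per kb, against 99.9, 99.2 and 99.4 by tags. The male day 4 list is the shallowest.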
